A study of Arabidopsis thaliana with 18 samples.

Results

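A group of 110 of 32678 Arabidopsis thaliana genes (0.337%) moved in opposite directions under ozone in the accessions Col-0 and Cvi-0. They were chosen from the group means of log2(CPM+1), where CPM is a gene's count divided by the total of its library and multiplied by 1000000. A gene was taken when its ozone mean minus its control mean was at least 0.5 in one accession and at most -0.5 in the other. In 41 genes the level was higher after ozone in Col-0 and lower in Cvi-0, and in 69 genes it was lower in Col-0 and higher in Cvi-0. These values chose the genes, so what follows on Col-0 and Cvi-0 is a description without a test. Only the ozone response of the third genotype, Col-S, comes from libraries that the choice did not use. Those libraries still shared deviations with the others by replicate number: same-numbered ozone libraries of Col-S and Col-0 correlated at 0.302 to 0.448 over genes, and the controls at 0.306 to 0.426.

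Messenger RNA was sequenced from whole rosettes of 3-week-old plants, each library from a pool of 10 to 15 rosettes, with 3 biological replicates in each of 6 groups. Col-0, the laboratory accession on which the reference genome is based, was sampled as control and after 2 h at 350 ppb ozone. Cvi-0, the accession from the Cape Verde Islands, was sampled in the same 2 ways. Col-S, a near-isogenic line in which ozone sensitivity from Cvi-0 was introgressed into Col-0, was also sampled as control and after 2 h at 350 ppb ozone. Col-S is a single line, so its introgressed segments cannot be told apart from any other change fixed in it.

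Ozone enters leaves through the stomata and breaks down into reactive oxygen species in the cell wall space, which sets off signalling by calcium, protein kinases and the hormones ethylene, salicylic acid, jasmonate and abscisic acid. Sensitive plants form lesions through a spreading cell death, which ethylene promotes and jasmonate limits. MPK12, a MAP kinase of guard cells, is known for allelic differences between Col-0 and Cvi-0 that affect stomatal closure. It did not belong to the 110 genes. Its differences between ozone and control were -0.11 in Col-0, -0.08 in Cvi-0 and -0.33 in Col-S on the log2(CPM+1) scale, and its Col-S log2 fold change was -0.18 (edgeR adjusted p = 0.194).

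The 18 libraries held 14905841 to 26171613 counts. The 8 leaf markers, led by RBCS1A and RCA, summed to 54469 to 64065 CPM in controls. After ozone they summed to 34214 to 44938 CPM in Col-0, 24683 to 29865 CPM in Col-S and 19297 to 21833 CPM in Cvi-0, ranges that did not overlap, and their part in the results on single genes was not tested. The 10 root markers summed to 57.6 to 123.2 CPM, with the root hair genes EXPA7 and RHD6 at 0 in every library, and 7 flower markers summed to 0.473 to 2.94 CPM. In whole rosettes, fewer cells of a type and less RNA per cell cannot be told apart. On the first principal component both Col-0 libraries numbered 2 lay nearest to the other treatment. Without these libraries the same choice gave 48 and 87 genes, of which 38 and 67 were among the 41 and 69.

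Of 8271 genes past 0.5 in both accessions, 3790 had higher means after ozone in both (45.8%), 4371 had lower means in both (52.8%), 41 were higher in Col-0 and lower in Cvi-0 (0.496%), and 69 were the other way round (0.834%). The 41 had a median difference of 0.70 in Col-0 (0.50 to 1.90) and -0.77 in Cvi-0 (-2.26 to -0.50). The 69 had a median difference of -0.72 in Col-0 (-2.42 to -0.51) and 0.94 in Cvi-0 (0.51 to 5.19).

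**Figure D1:**
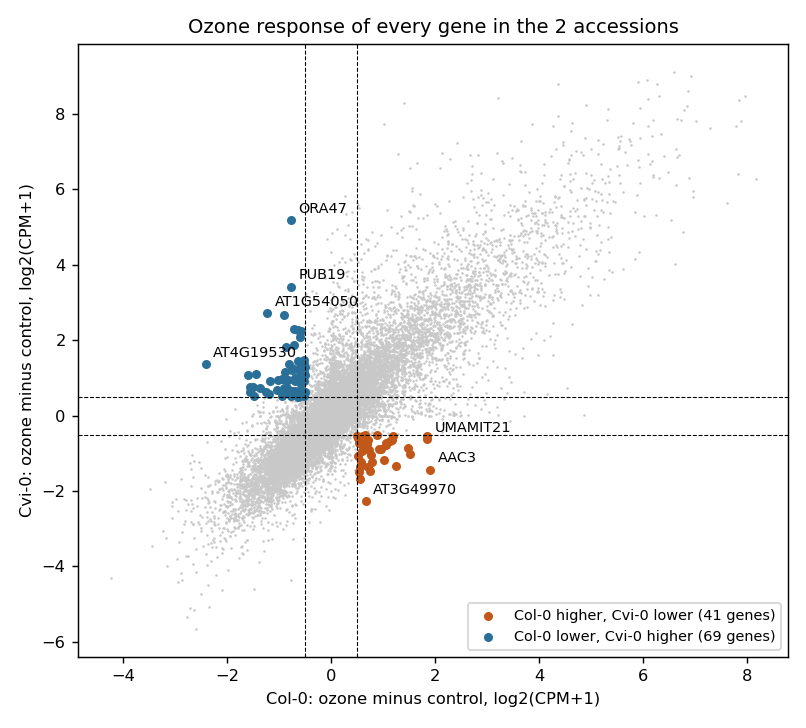
Ozone mean minus control mean of log2(CPM+1) in Col-0 (x axis) and Cvi-0 (y axis), one point per gene, with all genes in grey and the dashed lines at 0.5 and -0.5. The 41 orange and 69 blue genes lie in the corners off the diagonal, away from the main body of genes, with ORA47 at -0.77 and 5.19.

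Libraries stood apart in most of these genes. Of the 41, all 3 ozone libraries lay above all 3 controls in Col-0 for 36 (22% of the 27247 genes with a count did so) and below them in Cvi-0 for 36 (32.9% of genes with a count), with both for 33. Of the 69, ozone libraries lay below controls in Col-0 for 59 (29.4% of genes with a count) and above them in Cvi-0 for 58 (26.8%), with both for 50. In the edgeR quasi-likelihood fit, 38 of the 41 were called higher in Col-0 (29.8% of 20622 tested genes) and 33 lower in Cvi-0 (36.1%). Of the 69, 51 were called lower in Col-0 (27.5%) and 62 higher in Cvi-0 (34.5%). The choice used both contrasts, so nothing is read from these counts. All 110 genes passed the filter on low counts, although 3 of the 41 and 14 of the 69 had a mean under 3 CPM.

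The order of the accessions often turned over, which the choice of opposite movements largely sets in advance, so nothing is read from it. By the choice, any gene with control levels within 0.5 had to lie at least 0.5 apart after ozone. Of the 41 genes, control levels were within 0.5 of each other for 23 and at least 0.5 higher in Cvi-0 for 15, whereas after ozone 38 were at least 0.5 lower in Cvi-0. The accession with the higher mean changed in 31 of the 41. Of the 69 genes, control levels were within 0.5 for 35 and at least 0.5 lower in Cvi-0 for 29, and after ozone 55 were at least 0.5 higher in Cvi-0. The higher accession changed in 42 of the 69. Control levels lay at least 4-fold apart on that scale in 3 of the 41 and 8 of the 69, so that an opposite response there ran between very different levels. Cvi-0 reads were counted against a build derived from Col-0, and the part of sequence differences in these levels was not tested.

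Promoter windows of 3 genes are shown, to let the reader see which of 12 short motifs, searched on both strands, they hold. AAC3 and AT4G19530 come first in their directions by the smaller difference, whereas PUB19 has rank 15 in its direction. All 3 windows hold motifs. The windows of ORA47, JMT and AT5G22920, among others, held none of the 12, so those shown do not stand for the whole group. Each window is the 250 bases before the gene start of RefSeq on build TAIR10.1, read 5′ to 3′ on the gene's strand, and capitals mark the motifs. Only 31.1% of matched genes had the same start and end in RefSeq as in the annotation of the counts. PUB19, for one, starts at 22198403 in the latter, so a window need not adjoin the counted gene. AAC3 at chr4:14043348-14043597 on the minus strand holds the W-box core TTGAC bound by WRKY factors, the site II element TGGGCC and the auxin response element TGTCTC. PUB19 at chr1:22198016-22198265 on the plus strand holds repeated G-boxes (CACGTG), the abscisic acid element ACGTGNC, the W-box core, the TGA element core TGACG and the heat shock unit pair GAANNTTC. Matches of the G-box, the abscisic acid element and the W-box core overlap in it. AT4G19530 at chr4:10651494-10651743 on the plus strand holds the abscisic acid element and the heat shock unit pair.
AAC3: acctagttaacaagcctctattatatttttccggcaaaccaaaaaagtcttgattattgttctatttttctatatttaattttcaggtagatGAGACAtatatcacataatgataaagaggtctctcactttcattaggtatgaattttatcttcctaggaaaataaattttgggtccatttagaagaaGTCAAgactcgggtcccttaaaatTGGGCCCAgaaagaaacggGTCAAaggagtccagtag
PUB19: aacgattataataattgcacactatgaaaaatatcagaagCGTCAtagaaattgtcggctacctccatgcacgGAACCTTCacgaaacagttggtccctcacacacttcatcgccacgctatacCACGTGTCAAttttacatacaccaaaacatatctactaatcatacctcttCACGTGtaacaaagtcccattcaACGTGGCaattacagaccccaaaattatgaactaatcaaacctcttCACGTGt
AT4G19530: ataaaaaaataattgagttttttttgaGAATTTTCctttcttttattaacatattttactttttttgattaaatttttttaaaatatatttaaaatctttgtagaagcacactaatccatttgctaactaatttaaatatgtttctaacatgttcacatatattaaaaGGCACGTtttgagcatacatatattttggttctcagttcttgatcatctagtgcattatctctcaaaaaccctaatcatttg

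Among the 41 genes higher in Col-0 and lower in Cvi-0, AAC3 had the largest smaller difference. AAC3 (AT4G28390, chr4:14041288-14043278 in the files, TAIR10) encodes a mitochondrial ADP/ATP carrier and overlaps the annotated gene AT4G28370, so their reads may be shared. In Col-0 it had 6.86, 14.3 and 6.28 CPM in controls and 42.4, 28.7 and 34.5 CPM after ozone. In Cvi-0 it had 22.7, 17.8 and 19.7 CPM in controls and 7.8, 6.68 and 5.97 CPM after ozone. Every Col-0 ozone library was above every Col-0 control, and every Cvi-0 ozone library below every Cvi-0 control. In Col-S the controls had 8.29, 7.22 and 6.96 CPM and the ozone libraries 38.9, 42.3 and 33.0 CPM, and the log2 fold change was 2.52 (SE 0.25, edgeR adjusted p = 1.04e-07). Col-S thus followed Col-0, with no overlap between its groups.

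Hormone and signalling genes were among the same 41. JMT, which methylates jasmonic acid to methyl jasmonate, had 4.93, 9.29 and 7.65 CPM in Col-0 controls and 16.2, 25.01 and 26.2 CPM after ozone. In Cvi-0 it had 10.01, 22.3 and 9.46 CPM in controls and 3.93, 7.8 and 6.64 CPM after ozone, again without overlap. In Col-S JMT went from 6.0, 9.07 and 7.46 CPM to 23.9, 16.6 and 29.2 CPM (log2 fold change 1.81, SE 0.34, edgeR adjusted p = 1.57e-04). TGA7, a bZIP factor of the family that partners the salicylic acid receptor NPR1, rose by 1.38 in Col-S (SE 0.27, edgeR adjusted p = 2.22e-04), where the log2(CPM+1) differences of Col-0 and Cvi-0 were 0.92 and -0.88. IAGLU, which attaches glucose to the auxin indole-3-acetic acid and overlaps AT4G15545, was at 1.12 in Col-0 and -0.66 in Cvi-0. It stands outside the rule for named genes and was chosen after its values were seen. HB23, a homeodomain factor, rose by 0.91 on the log2 scale in Col-S (SE 0.14, edgeR adjusted p = 2.1e-05). CNGC12, a cyclic nucleotide-gated channel, had mean levels of 91.2 and 151 CPM in Col-0, 54.2 and 31.8 CPM in Cvi-0, and 27.4 and 45.3 CPM in Col-S, for control and ozone in turn.

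Several membrane carriers were among the 41 genes. The list of membrane transporters, a long one with 449 genes, held 5 of the 110 (1.11% of the list, against 0.337% of all genes). All 5 were higher in Col-0 and lower in Cvi-0. In Col-S 129 of the list's 352 tested genes were called higher and 129 lower, against 34.3% and 34% of all tested genes. UMAMIT21, of the family of amino acid exporters, had 2.05, 1.27 and 1.58 CPM in Col-0 controls and 11.3, 6.86 and 7.57 CPM after ozone. In Cvi-0 it had 2.21, 2.79 and 2.04 CPM in controls and 1.64, 0.947 and 1.01 CPM after ozone, a smaller difference that nevertheless did not overlap. In Col-S it rose by 3.22 (SE 0.28, edgeR adjusted p = 2.33e-08), the highest value of the 41. ABCC4, an ABC transporter that stands outside the rule for named genes and was chosen after its values were seen, had means of 41.4 and 147 CPM in Col-0, 33.5 and 22.6 CPM in Cvi-0 and 34.8 and 93.6 CPM in Col-S, control and ozone in turn. SWEET12, a sucrose exporter of phloem loading, was at 0.55 in Col-0, -1.69 in Cvi-0 and 1.05 in Col-S on the log2(CPM+1) scale. In Col-S it had 11.4, 2.0 and 5.36 CPM in controls and 26.2, 8.79 and 6.8 CPM after ozone, so that the groups overlapped and replicate 1 was highest in both. The Col-S fold change of SWEET12 was 1.34 (edgeR adjusted p = 0.116), and with the replicate number as a block it was 1.39 (edgeR adjusted p = 3.86e-05). The value rested on single libraries, with 2.13 without Col-S control replicate 1 (edgeR adjusted p = 0.0391) and 0.499 without Col-S ozone replicate 1 (0.599). ZIP5, a zinc transporter, had 0.94 (edgeR adjusted p = 0.174) and 1.11 with the block (edgeR adjusted p = 0.0099), and was also called in a fit of the Col-S libraries alone (0.0232). UMAMIT29, also on the list, went the other way in Col-S, with a log2 fold change of -0.30 that was not called. Its value ran from -0.62 to 0.46 under the alternatives.

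Other genes of the 41 were enzymes and regulators of varied kinds. AT4G12290, a copper amine oxidase, had means of 11.4 and 27.3 CPM in Col-0 and 20 and 7.44 CPM in Cvi-0, control and ozone in turn. CYP706A4, a cytochrome P450, lies 599 bases from it with no gene between, and no other pair of the 110 lay as close. AT4G12290 rose by 0.97 in Col-S (edgeR adjusted p = 0.0102), which without Col-S ozone replicate 2 became 0.59 (edgeR adjusted p = 0.0954). CYP706A4 had a Col-S value of 0.06 (edgeR adjusted p = 0.725). AT1G58590, annotated as other RNA, had 6.92 and 21.1 CPM in Col-0 against 1.02 and 0.0962 CPM in Cvi-0. The peroxisome proliferation gene PEX11C, also outside the rule and chosen after its values were seen, with differences of 0.88 in Col-0 and -0.52 in Cvi-0, rose in Col-S by 0.89 (SE 0.09, edgeR adjusted p = 2.63e-07). SQE6, ASPGB1 and PMEPCRA had Col-S values of 0.11, 0.28 and 0.31 with edgeR adjusted p of 0.668, 0.519 and 0.0698. PMEPCRA was called in DESeq2 (adjusted p = 0.0399), with DESeq2 size factors in edgeR (0.0447) and without Col-S control replicate 3 or ozone replicate 1 (edgeR adjusted p = 0.0485 and 0.0368), and its value was 0.14 without ozone replicate 2. ASPGB1 had 0.66 without Col-S control replicate 2 and 0.01 without control replicate 1, neither called.

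**Figure D2:**
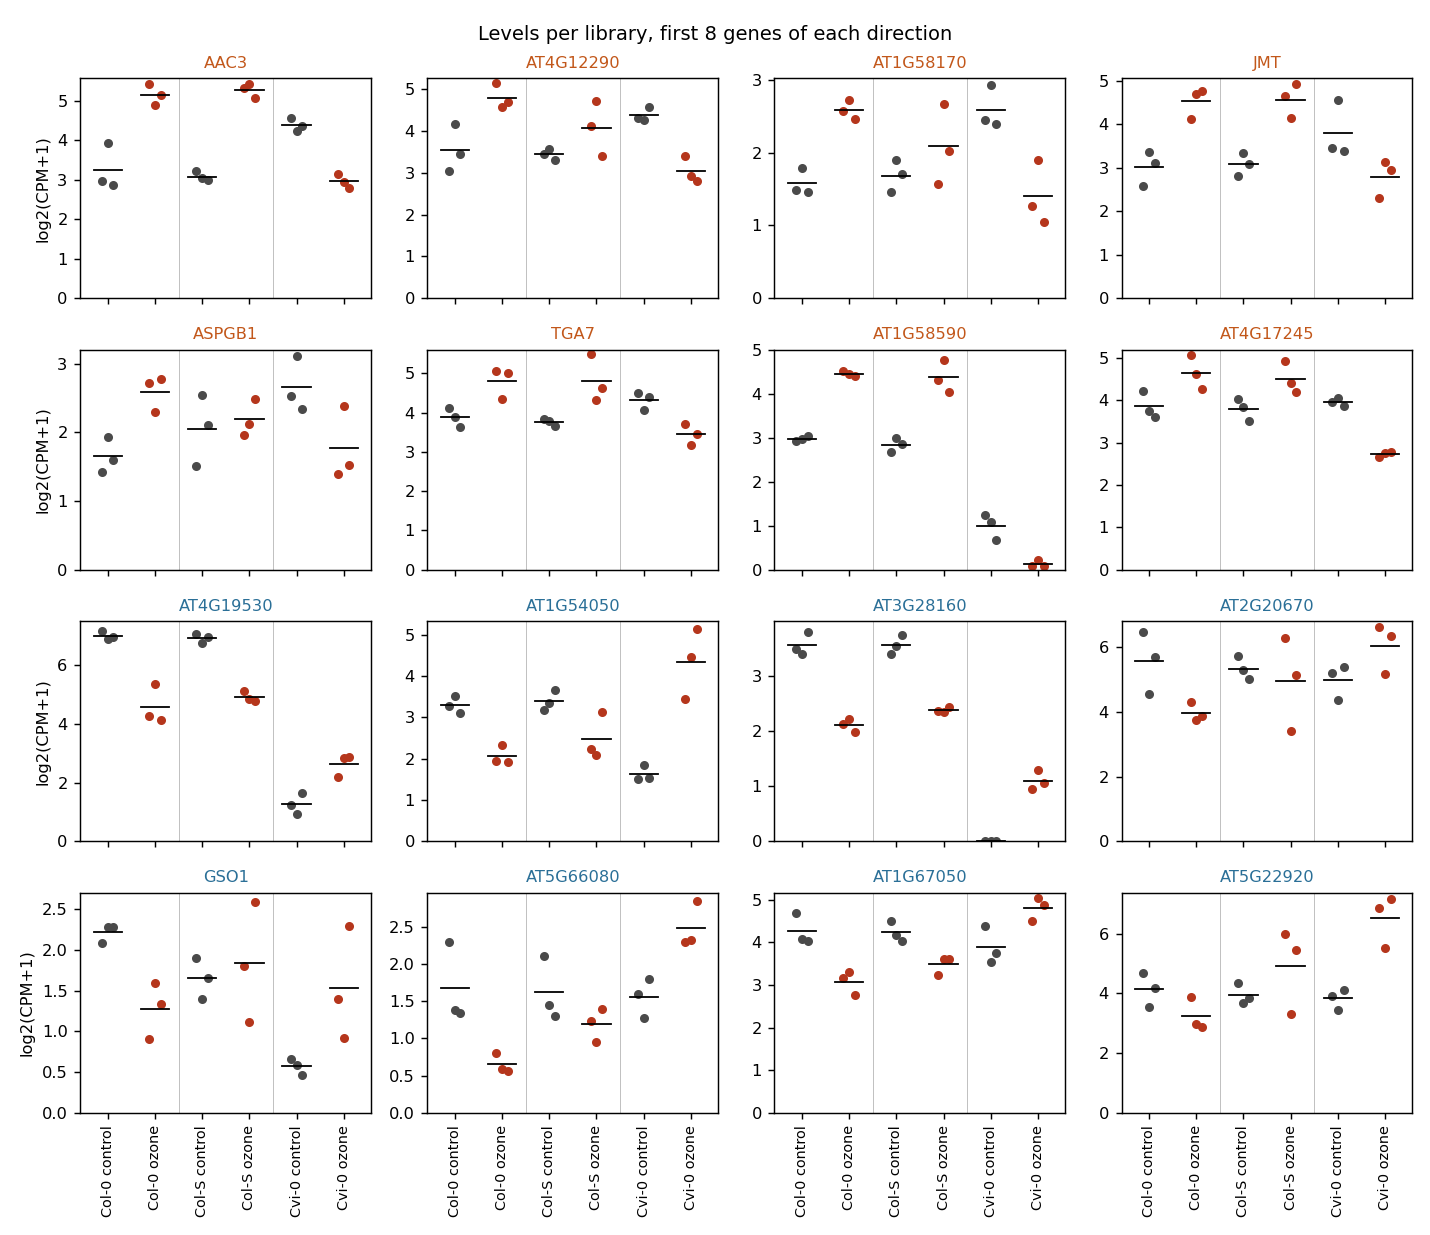
Level in log2(CPM+1) of the first 8 genes of each direction in every library (dots: grey control, red ozone; bars: mean of 3 libraries), with orange titles for genes higher in Col-0 and lower in Cvi-0 and blue titles for the reverse. AAC3 goes from 9.14 to 35.2 mean CPM in Col-0 and from 20.1 to 6.82 in Cvi-0, while AT4G19530 goes from 128 to 24.97 in Col-0 and from 1.45 to 5.35 in Cvi-0.

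Among the 69 genes lower in Col-0 and higher in Cvi-0, AT4G19530, AT1G62630, ZW9 and AT3G28160 had lower mean levels in Cvi-0 than in Col-0 in both treatments. The first and the second encode immune receptors, whereas the list of intracellular immune receptors (30 genes) held none of the 110. Of its 25 tested genes, 20 were called higher and 2 lower in Col-S, against 34.3% and 34% of all tested genes. AT4G19530 (chr4:10651744-10657282), a receptor of the TIR-NBS-LRR class that detects pathogens inside the cell, had 144, 118 and 122.7 CPM in Col-0 controls and 18.2, 40.1 and 16.6 CPM after ozone. In Cvi-0 it had 1.36, 0.879 and 2.1 CPM in controls and 3.54, 6.13 and 6.37 CPM after ozone. Even the highest Cvi-0 ozone library lay below the lowest Col-0 ozone library. In Col-S the controls had 133, 107 and 124 CPM and the ozone libraries 33.6, 27.9 and 26.4 CPM, and the log2 fold change was -1.87 (SE 0.28, edgeR adjusted p = 1.69e-05). AT1G62630, a receptor of the CC-NBS-LRR class, fell by 1.38 in Col-S (SE 0.21, edgeR adjusted p = 1.85e-05). Its means were 25.9 and 13.6 CPM in Col-0 and 4.83 and 7.86 CPM in Cvi-0. ZW9, a TRAF-like gene, had 24.8 and 8.9 CPM in Col-0 and 0.643 and 1.84 CPM in Cvi-0. AT3G28160, of unknown function, had 10.8 and 3.32 CPM in Col-0, was at 0 in all Cvi-0 controls and reached 1.15 CPM in Cvi-0 after ozone.

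ORA47 and PUB19, both stress regulators, had the largest Cvi-0 differences of the 69. ORA47, an AP2/ERF factor that activates jasmonate synthesis genes, had 1.36, 0.841 and 1.94 CPM in Cvi-0 controls and 90.2, 84.3 and 79.6 CPM after ozone. In Col-0 it had 8.67, 1.06 and 7.54 CPM in controls and 1.75, 1.01 and 5.15 CPM after ozone. The Col-0 groups overlapped, with the libraries numbered 2 low in both, whereas the Cvi-0 groups were far apart. In Col-S ORA47 went from 3.0, 3.07 and 1.75 CPM to 15.3, 12.7 and 35.7 CPM (log2 fold change 3.20, SE 0.61, edgeR adjusted p = 1.65e-04). PUB19, a U-box ubiquitin ligase that dampens abscisic acid and drought responses, had 3.73, 2.49 and 1.42 CPM in Col-0 controls and 0.692, 1.74 and 0.736 CPM after ozone. In Cvi-0 its means were 1.28 CPM in controls and 23.9 CPM after ozone. In Col-S it had 12.5, 7.33 and 2.5 CPM in controls and 25.7, 6.78 and 28.7 CPM after ozone. The groups overlapped, and the log2 fold change was 1.63 (SE 0.51, edgeR adjusted p = 0.0087). AT1G54050, a small heat shock protein of the HSP20 type, had means of 8.91 and 3.23 CPM in Col-0 and 2.09 and 21.6 CPM in Cvi-0. Its Col-S value of -0.81 had an edgeR adjusted p of 0.063, and of 0.0322 with the replicate number as a block. It was -0.998 with library totals (edgeR adjusted p = 0.0227) and -1.30 without Col-S ozone replicate 3 (0.00637). HSFA1E, a heat shock factor, was at -0.65 in Col-0, 1.46 in Cvi-0 and -0.15 in Col-S on the log2(CPM+1) scale.

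Protein phosphatases, glucosinolate synthesis and growth genes also lay in the 69. PP2C74 and AT5G66080 made 2 of the 30 genes on the list of protein phosphatases 2C (6.67%, against 0.337% of all genes). Of the list's 26 tested genes, 18 were called higher and 4 lower in Col-S, against 34.3% and 34% of all tested genes. PP2C74 had 39.2, 32.9 and 33.5 CPM in Col-0 controls and 22.8, 26.2 and 19.8 CPM after ozone, against 36.3, 38.4 and 37.9 CPM and then 144, 156 and 187 CPM in Cvi-0. Control levels overlapped between the accessions, and ozone levels did not. In Col-S PP2C74 fell by 0.58 (SE 0.14, edgeR adjusted p = 0.00152). CYP79B3, which converts tryptophan to the oxime that feeds indole glucosinolates, had 97.5, 92.6 and 84.0 CPM in Col-0 controls and 41.8, 80.6 and 65.2 CPM after ozone. In Cvi-0 it had 20.98, 18.8 and 20.2 CPM in controls and 103, 101 and 93.5 CPM after ozone, so that Cvi-0 after ozone reached the level of Col-0 controls. CYP79B3 fell by 0.46 in Col-S (edgeR adjusted p = 0.0414), a call lost without Col-S control replicate 1, 2 or 3 (edgeR adjusted p = 0.0991, 0.054 and 0.0762) or ozone replicate 1 (0.214), and in DESeq2 (adjusted p = 0.0533). The list of auxin and cell growth genes held ARF19, an auxin response factor, EXLA1, an expansin-like protein that overlaps AT3G45980, and XTH15, a xyloglucan-modifying enzyme. Their Col-S values were 0.54, 0.31 and -0.91 with edgeR adjusted p of 0.218, 0.52 and 0.064, and 0.0102 for XTH15 with the block. ARF19 had 0.91 without Col-S ozone replicate 2 (edgeR adjusted p = 0.0237) and 0.08 without ozone replicate 3 (0.871). XTH15 had -1.37 without Col-S ozone replicate 1 (edgeR adjusted p = 0.022), and was called without control replicate 2 (0.0304) and with library totals (0.0255). EXLA1 had 0.68 without Col-S ozone replicate 2 and -0.04 without ozone replicate 3, neither called. On that list 38 genes were called higher and 92 lower in Col-S among 163 tested, against 34.3% and 34% of all tested genes.

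The ozone response of Col-S was tested in the same fit, where a call needs an adjusted p (Benjamini-Hochberg) below 0.05. Of the 41 genes, 20 were called higher (34.3% of all tested genes were) and 2 lower (34% of all tested genes), with 19 not called. Of the 69 genes, 10 were called higher and 16 lower, with 43 not called. Together 48 of the 110 were called (43.6%), against 68.3% of all tested genes. The genes called lower among the 41 were AT3G49970, described with the chromosome stretches, and AT2G29170, of the Rossmann-fold superfamily, which fell by 0.79 (edgeR adjusted p = 0.0294, and 0.101, 0.0818 and 0.126 without Col-S control replicate 1, control replicate 3 or ozone replicate 3). Among the 48, 36 had the direction of Col-0 and 12 that of Cvi-0. The count of 10 became 18 without Col-S ozone replicate 2 and 6 without Col-S control replicate 3, and the count of 2 became 1 without Col-S control replicate 1, control replicate 3 or ozone replicate 3. All 3 Col-S ozone libraries lay above controls for 15 of the 41 and 5 of the 69 (24.7% of genes with a count), and below for 2 and 22 (33.2%).

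The median Col-S log2 fold change was 0.55 over the 41 genes (quartiles 0.22 and 0.97) and 0.02 over the 69 (quartiles -0.55 and 0.46), against -0.03 over all tested genes (quartiles -0.64 and 0.87). Scaling to library totals, as the choice of genes did, moved the median of all tested genes by -0.18, and with it the median of the 41 to 0.37 and that of the 69 to -0.17, so that the sign for the 69 depends on the scaling. Leaving out single Col-S libraries put that median between -0.14 (without ozone replicate 3) and 0.22 (without ozone replicate 2), and that of the 41 at 0.36 without ozone replicate 2. With library totals 15 of the 41 were called higher and 3 lower, and 7 of the 69 higher and 22 lower. Calls over all tested genes moved the same way, from 7076 to 6183 higher and from 7005 to 8513 lower. On the log2(CPM+1) scale the Col-S difference lay between those of the parents in 35 of the 41 and 58 of the 69. By the choice the parents' differences span at least -0.5 to 0.5, so any small Col-S difference falls between them. It was between -0.5 and 0.5 in 21 of the 41 and 42 of the 69, so nothing is read from these counts. With library totals the Col-S difference was nearer to Col-0 in 35 of the 41 and 50 of the 69, and nearer to Cvi-0 in 6 and 19. The genes nearer to Cvi-0 were 8 in the chromosome stretches described below and 17 elsewhere. With TMM scaling they were 9 and 24. The side on which a small Col-S difference falls is set by the choosing values, so nothing is read from these counts either.

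**Figure D3:**
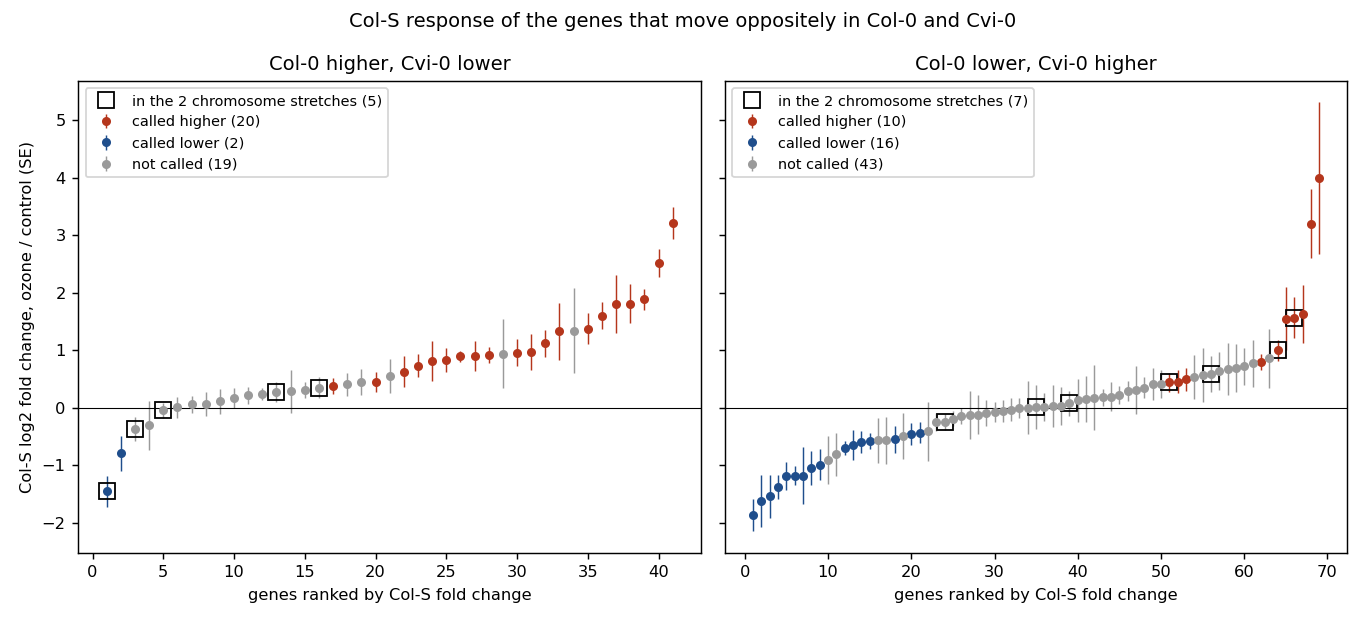
edgeR log2 fold change of ozone against control in Col-S with its SE, genes ranked by value, for the 41 genes (left) and the 69 genes (right), with red for called higher, blue for called lower, grey for not called and squares for genes in the chromosome stretches. On the left 20 genes are red and 2 blue, on the right 10 red and 16 blue.

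Further calls in Col-S included receptor and ROP kinases. RBK2, a kinase that binds ROP GTPases, fell by 1.54 (SE 0.38, edgeR adjusted p = 0.00169), and AT3G45430, a lectin receptor kinase, fell by 1.62 (SE 0.45, edgeR adjusted p = 0.0039). Their Cvi-0 control means were 0.0868 and 0.105 CPM. AT3G28510, an ATPase of the P-loop type, had the highest value of the 69 at 3.99 (SE 1.32, edgeR adjusted p = 0.0127). Its Col-S ozone libraries held 0.374, 14.6 and 6.42 CPM and its Col-0 controls 5.3, 28.8 and 7.59 CPM, so that single libraries spread widely. The Col-0 ozone libraries held 0.231, 14.2 and 24.7 CPM and overlapped the controls. Mean levels in Col-0 were close, at 13.9 CPM in controls and 13.04 CPM after ozone. The Col-0 difference of -0.58 in log2(CPM+1) that placed it among the 69 came with ozone replicate 1 far below the others. Without Col-S ozone replicate 2 the Col-S value of AT3G28510 was 2.88 (edgeR adjusted p = 0.092). AT5G22920, a RING-type zinc finger gene, had 1.55 (edgeR adjusted p = 0.0182), lost without Col-S control replicate 2 or 3 (edgeR adjusted p = 0.0644 and 0.0581) or ozone replicate 1 (0.139).

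Chromosome 2 from 16 to 19 Mb and chromosome 3 from 17 to 21 Mb are stretches, taken from earlier results of these data, where control levels of Col-S mostly followed Cvi-0. Of genes at least 2-fold apart between Cvi-0 and Col-0 controls, Col-S lay nearer to Cvi-0 for 67 of 92 (72.8%) inside and 58 of 1277 (4.54%) elsewhere. The stretches came from the same data, so these shares only describe them and are no separate support. The same Col-S controls also enter the Col-S fold changes that follow. The stretches held 12 of the 110 genes (10.9%, against 7.11% of genes with a count), 5 of the 41 and 7 of the 69. Of these 12, 4 were called in Col-S and 8 were not, whereas 68.3% of all tested genes were called. Each of the 4 moved in the direction of Cvi-0. Of the 98 genes elsewhere, 8 were called in the direction of Cvi-0 and 36 in that of Col-0. Without Col-S ozone replicate 3 the 12 gave 3 calls in each direction, without Col-S ozone replicate 2 they gave 6 and 0 for Cvi-0 and Col-0 in turn, and elsewhere that library's absence gave 15 and 26. Elsewhere the calls became 4 and 33 without Col-S control replicate 3.

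MYB77, a factor of auxin-dependent root branching at chr3:18557970-18559106, had 13.2, 11.7 and 13.9 CPM in Col-0 controls and 6.69, 9.46 and 6.47 CPM after ozone. In Cvi-0 it had 8.06, 7.41 and 9.36 CPM and then 28.5, 39.7 and 32.0 CPM, and in Col-S 13.1, 14.8 and 9.62 CPM and then 20.2, 22.5 and 23.7 CPM. Col-S thus started at the Col-0 level and moved with Cvi-0, by 1.00 (SE 0.18, edgeR adjusted p = 1.02e-04). AT3G49970, of the NPH3 family known from phototropism, lies 28904 bases from MYB77 at chr3:18527216-18529066. It had 0.903, 0.844 and 0.655 CPM in Col-0 controls and 2.31, 1.67 and 1.63 CPM after ozone, against 10.13, 7.99 and 7.69 CPM and then 1.25, 1.00 and 0.738 CPM in Cvi-0. In Col-S it had 5.89, 4.77 and 4.11 CPM in controls and 2.1, 1.73 and 0.818 CPM after ozone, a fall by 1.46 (SE 0.27, edgeR adjusted p = 1.22e-04). Both the Col-S control level and the direction were on the side of Cvi-0.

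Of the other genes of the stretches, AT2G44380, with a cysteine and histidine-rich C1 domain, rose by 1.57 in Col-S (SE 0.36, edgeR adjusted p = 9.17e-04). AT2G40020 rose by 0.44 (edgeR adjusted p = 0.0276), a call lost without Col-S control replicate 3 or ozone replicate 3 (edgeR adjusted p = 0.105 and 0.152) and with library totals (0.166). ALDH2B4, a mitochondrial aldehyde dehydrogenase with 208 and 319 CPM in Col-0 and 224 and 143 CPM in Cvi-0, had 240 and 206 CPM in Col-S and a value of -0.05 (edgeR adjusted p = 0.755). AT2G39710, an aspartyl protease, had -0.37 (edgeR adjusted p = 0.139), but was called at -0.54 with library totals (edgeR adjusted p = 0.0369) and at -0.63 without Col-S ozone replicate 2 (0.0234), and had -0.20 without ozone replicate 3. ACR9, an ACT domain protein, had 0.58 (edgeR adjusted p = 0.108) and 0.54 with the block (edgeR adjusted p = 0.0131). It was also called without Col-S control replicate 1 (0.85, edgeR adjusted p = 0.039) or ozone replicate 2 (0.88, 0.0128), and had 0.29 without ozone replicate 1. AT2G43535, AT2G41705, AT3G50340, AT3G51670 and FBH4, a bHLH factor of flowering, had Col-S values between -0.24 and 0.34 that were not called. Without Col-S ozone replicate 3, AT2G41705 (0.45, edgeR adjusted p = 0.0233), FBH4 (0.47, 0.0436) and AT3G51670 (-0.42, 0.00995) were called, the last also with library totals (-0.43, 0.00875). AT2G41705 and FBH4 overlap AT2G41710 and AT2G42270.

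**Figure D4:**
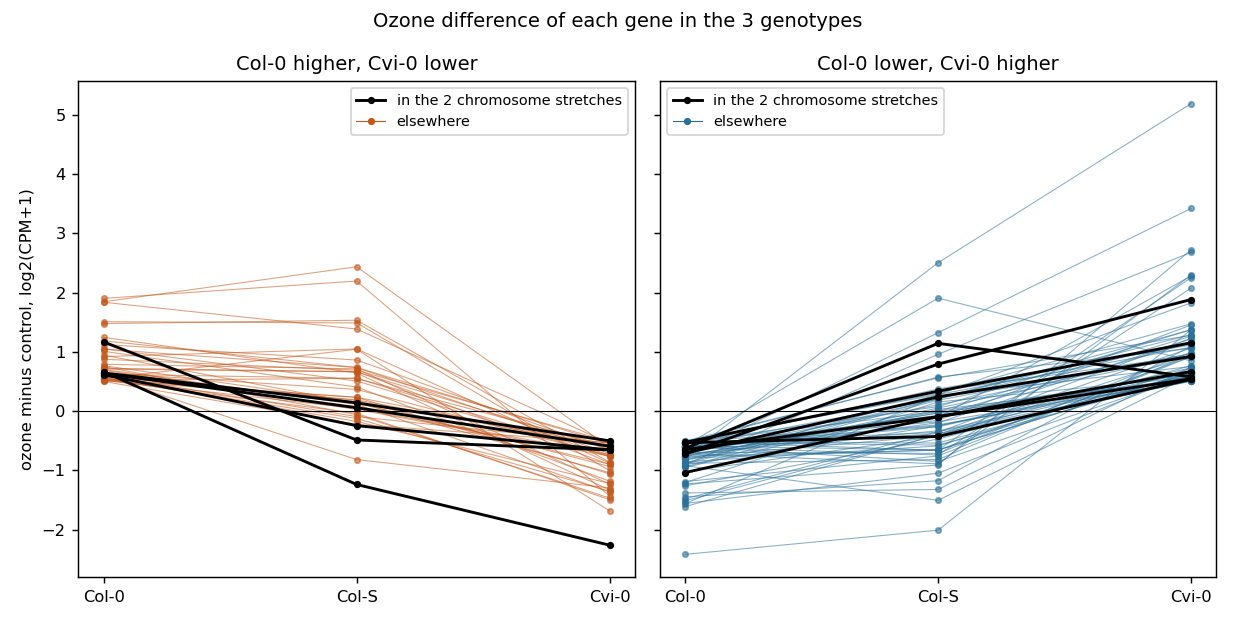
Ozone mean minus control mean of log2(CPM+1) in Col-0, Col-S and Cvi-0, one line per gene, for the 41 genes (left) and the 69 genes (right), with black lines for genes in the chromosome stretches. The lines run from 0.50 or above to -0.50 or below on the left by choice, and Col-S lies nearer to Cvi-0 for 8 of the 12 black lines.

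Of the 110 genes, 29 stood on any of 37 gene lists and 81 on none, and 19 lists held no member. The lists without a member included photosynthesis, with 75 tested genes of which 2 were called higher and 72 lower in Col-S, WRKY factors, with 45 higher and 5 lower of 61, and ribosomal proteins, with 6 higher and 19 lower of 59. The jasmonate list held JMT alone and was called higher in 22 and lower in 5 of 29 genes in Col-S. Beside these list counts, 34.3% of all tested genes were called higher and 34% lower in Col-S. Single members on other lists were the drought gene RD20 (abscisic acid), with means of 31.7 and 18.5 CPM in Col-0 and 7.27 and 12.5 CPM in Cvi-0, and the nitrate transporter NRT1.1 (sulfur and nitrogen), with 114 and 163 CPM in Col-0 and 134 and 64.6 CPM in Cvi-0. NRT1.1 rose by 0.45 in Col-S (edgeR adjusted p = 0.0303), a call lost without Col-S control replicate 1 or 2 (edgeR adjusted p = 0.0774 and 0.0773), without ozone replicate 1 or 2 (0.113 and 0.139) and with library totals (0.178). Homeobox genes split, with HB23 higher in Col-0 and lower in Cvi-0, and HB-12 and HAT14 the reverse. Cell wall enzymes split too, with PMEPCRA in the 41 and BXL1 and LGT9 in the 69.

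At the threshold, UMAMIT29, FBH4 and NRT1.1 lay just inside among the 41, with a smaller difference of 0.5004, 0.502 and 0.509, and AT1G61667, GRXC2 and AT2G36630 lay just outside, with 0.498, 0.495 and 0.492. Among the 69, AT3G29798, AT5G17640 and AT4G28290 lay just inside with 0.505, 0.506 and 0.508, and the auxin repressor IAA19, SP1L3 and TPS8 lay just outside with 0.499, 0.499 and 0.497.

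Apart from the values that chose them, the 110 genes were spread over all 5 chromosomes in shares of 17.3% to 23.6%. Of the 110, 16 overlapped another annotated gene (14.5%, against 14% of genes with a count), where the reads of both cannot be told apart if counting ignored strand. Their median gene length was 2022 bases, against 2011 for genes with a count. In the 250 bases before the start, the W-box core TTGAC was present in 21 of the 41 (51.2%), 34 of the 69 (49.3%) and 44.6% of 31911 genes. The G-box CACGTG was present in 1 of the 41 (2.44%), 10 of the 69 (14.5%) and 5.91% of all genes. The abscisic acid element ACGTGNC was present in 2 of the 41 (4.88%), 12 of the 69 (17.4%) and 7.85% of all genes, and the evening element core AATATCT in 3, 12 and 9.74%. The auxin response element TGTCTC was present in 9 of the 41 (22.0%), 8 of the 69 (11.6%) and 10.8% of all genes. These shares are descriptions of letters in a window before the RefSeq start and were not tested.

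**Figure D5:**
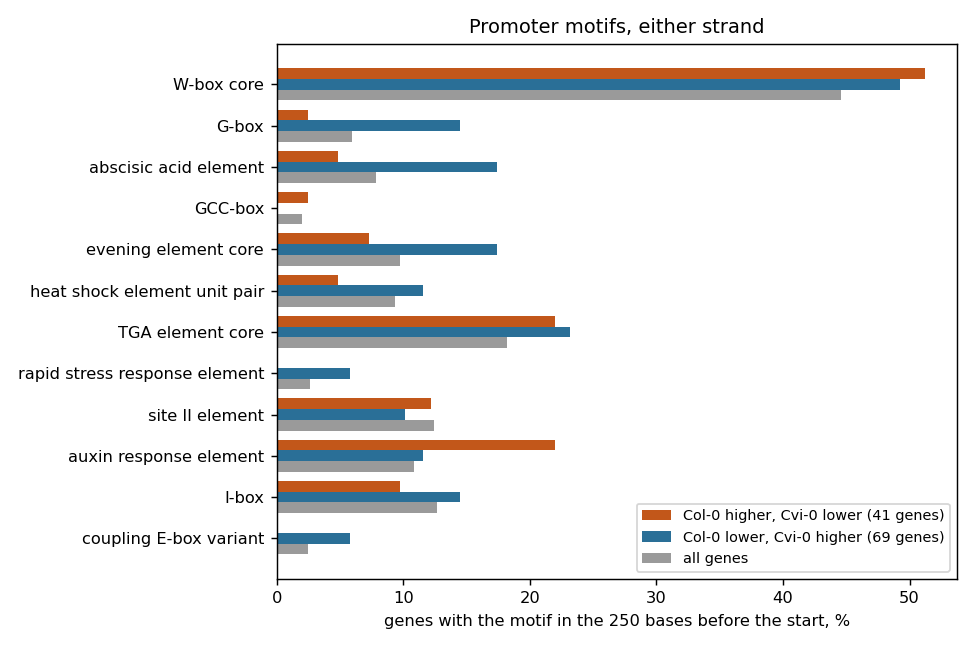
Share of genes (%, x axis from 0) whose 250 bases before the start hold each of 12 motifs on either strand, for the 41 genes (orange), the 69 genes (blue) and all genes (grey). The G-box stands at 2.44%, 14.5% and 5.91%, and the auxin response element at 22.0%, 11.6% and 10.8%.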

How the data were processed

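Libraries were made from total RNA with the TruSeq RNA kit, version 2, per the labels' protocols, and FastQC, TopHat2, SAMtools and HTSeq with build TAIR10 are named in the submitters' processing notes. For tool versions, counting strand and reads with several places, the sources used here give nothing. The authors deposited raw counts per gene and library without normalization. The choice of genes used library totals and a pseudocount of 1 CPM. edgeR 4.0.16 in R 4.3.3 fitted all 18 libraries with a mean per group after TMM scaling and its filter on low counts (20622 genes), and DESeq2 1.42.0 was an alternative. Each SE given with an edgeR value is the absolute log2 fold change divided by the square root of its quasi-likelihood F statistic. Replicates came from separate pools of rosettes. Depth gives a floor of 3 counts at 0.115 to 0.201 CPM, for counting error only. The fit was also run on simulated counts. These held far fewer changed genes than were called here and no deviations shared by replicate number, so nothing is read from that run.

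The genes, lists and chromosome stretches were chosen with earlier results of these data known. Genes were named by rank of the smaller difference (the first 12 per direction), nearness to the threshold, the extremes among called genes in Col-S, up to 3 per list, and the stretches, and ABCC4, IAGLU and PEX11C were named outside this rule. That rule gave 66 of the 110 genes, and not all of them are described, GSO1 and HOS3-1 among those left out. AT1G67050, also left out, was called lower in Col-S (edgeR adjusted p = 0.0367). Its call was lost without Col-S control replicate 1 or 2, or without ozone replicate 1 or 2. Gene names came from RefSeq TAIR10.1, which held 31912 of the 32678 codes and all 110 genes, and promoter windows from its genome. Same-numbered Col-S control and ozone libraries deviated together, with correlations of 0.128 to 0.279 over genes, as did 35 of the 45 same-numbered pairs over all groups at over 0.1. The numbers were therefore taken to pair them from the data, and the replicate number was tried as a block. The other alternatives were scaling, filter, pseudocount, threshold, DESeq2, a fit of Col-S alone and leaving out each library.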

Additional observations from a re-analysis of the deposited data

Results flagged for a closer look

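In 33 of the 41 genes higher in Col-0 and lower in Cvi-0, and in 50 of the 69 genes with the reverse, every ozone library lay beyond every control in both accessions, in opposite directions. The difference between the accessions was not tested, because its values chose the genes. In Col-0 alone, 22% of the 27247 genes with a count had all ozone libraries above controls and 29.4% had all below. In Cvi-0 alone the shares were 26.8% and 32.9%. The share of all genes with both, in opposite directions, was not counted.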

How the results depend on the processing

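With a threshold of 1 in place of 0.5, 4 genes were higher in Col-0 and lower in Cvi-0 and 4 the reverse. Of the first 4, 4 were called higher and 0 lower in Col-S, with a median of 1.39, and of the other 4, 0 were called higher and 2 lower, with a median of -0.99. A pseudocount of 0.5 CPM gave 51 and 90 genes, 2 CPM gave 30 and 48, TMM scaling gave 39 and 56 (31 and 48 shared), and leaving out single libraries gave 35 to 47 and 59 to 80. Requiring opposite edgeR calls left 32 and 47 genes. Leaving out single Col-S libraries gave 1 to 3 calls lower among the 41, a median of 0.36 to 0.67 for them, and 6 to 18 calls higher among the 69. Among the 50 genes of the 69 whose libraries stood apart in both accessions, 5 were called higher in Col-S. Library totals in the fit, chosen after seeing the data along with the choice without both Col-0 libraries numbered 2, gave the 41 a median of 0.37. The replicate block called 25 and 32 genes, among them all 22 and 26 called without it, and moved no count by over 1.5 times. The median of the 69, 0.02 with TMM, took either sign: -0.17 with library totals, -0.02 with the replicate block, -0.05 for genes chosen with TMM scaling, -0.07 for genes whose libraries stood apart, 0.05 with DESeq2, and -0.14 to 0.22 without single Col-S libraries. No named gene that was called in Col-S changed direction under these alternatives, and for the rest the cause was not tested. Of the 41 and 69 genes, 3 and 14 had a mean under 3 CPM, and the part of depth in the calls was not tested.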
